A study of Mus musculus with 6 samples.

Results

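The aquaporins described here are 10 genes of 1 family, Aqp1 to Aqp9 and Aqp11, read from the value table of a study of mouse heart RNA. A gene was taken where a row of the table was annotated with its symbol alone, and rows were to be chosen by the highest mean level over the 6 arrays where a gene had several. Each of the 10 genes had exactly 1 such row, so no level decided between rows, and the members were 10 of the 19938 genes with a row of their own. Aquaporins are membrane pores that let water pass along an osmotic gradient. One branch of the family, the aquaglyceroporins Aqp3, Aqp7 and Aqp9, also passes glycerol, and Aqp11 belongs to an unorthodox branch that sits in membranes inside the cell. In the heart, Aqp1 is best known from the endothelium of capillaries, Aqp4 from the surface of muscle cells, and Aqp7 as an entry route for glycerol, which heart muscle can burn.

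Heart RNA was hybridised to Affymetrix Mouse Gene 1.0 ST arrays, with 1 array for each of 3 A2a-R transgenic and 3 wild-type male littermates of the inbred FVB strain. The transgenic mice over-expressed the A2a receptor for adenosine, which acts through a stimulatory G protein to increase cyclic AMP, from a cardiac-specific, inducible transgene. Neither the promoter of that transgene nor the timing of its induction is stated in the labels. Every mouse of both groups had undergone transverse aortic constriction (TAC) at 8 weeks of age, in which the aorta is partly tied off so that the left ventricle must pump against high pressure, and hearts were taken 14 weeks later. Unoperated hearts were not analysed here, so the transgene cannot be told apart from its interaction with the surgery. The deposited values are log2 values after RMA, so a difference of 1 is a 2-fold difference. Across the 21789 rows tested, which are not independent replicates, pairs of arrays within a genotype had r = 0.9958 to 0.9973 and pairs across genotypes r = 0.9926 to 0.9957. All 10 heart muscle markers had a row, with a mean log2 value of 13.48 to 13.54 per transgenic heart and 13.46 to 13.52 per wild-type heart, and 0 of them passed the test below. Adenosine receptor rows were not analysed here, so the level of the transgene was not checked.

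Aqp4 was higher and Aqp1 lower in the transgenic hearts, Aqp8 was lower by the widest margin of the family but with a large spread, and the remaining 7 genes lay close together in both genotypes. Genotypes were compared by limma fitted to all 21789 rows with 1 gene symbol, with Benjamini-Hochberg adjustment over all of them and a threshold of 0.05. Of the 10 aquaporins, 1 rose, 1 fell and 8 did not pass, which is 20% of the family against 0.959% of all tested rows. The share called in the upward direction was 0.519% of all rows and in the downward direction 0.441%. The genes were proposed with earlier results of these data known, and nothing is read from the difference between these shares. The values of the 3 transgenic and 3 wild-type hearts did not overlap in 3 of the 10 genes, Aqp1, Aqp4 and Aqp8, where 20.3% of all rows showed no overlap. At looser or other thresholds the count was 3 of 10 at an adjusted p below 0.10 (2.18% of all rows), 3 of 10 at an unadjusted p below 0.05 (14.8%), and 2 of 10 at an unadjusted p below 0.01 with at least a 1.5-fold change (0.721%). The median difference over the 10 genes was 0.01 on the log2 scale, against -0.01 over all rows.

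**Figure D1:**
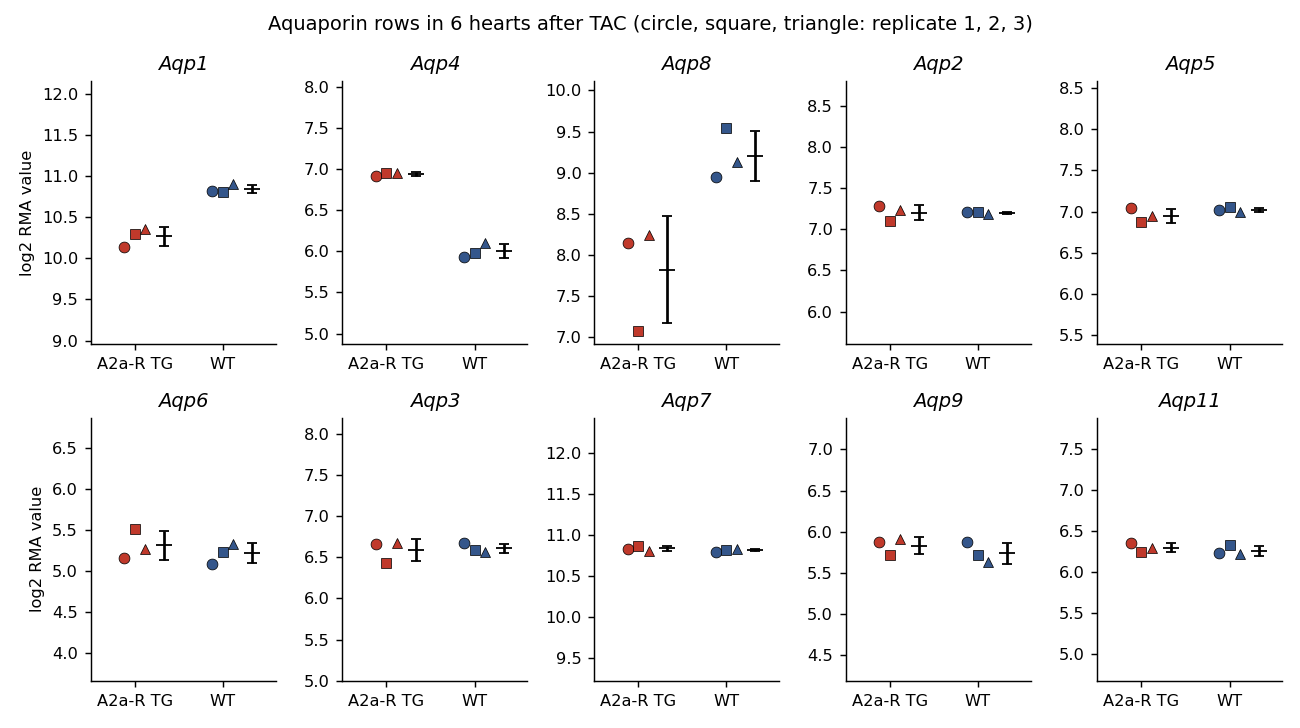
Log2 RMA value of each aquaporin row in the 3 A2a-R transgenic (red, left) and 3 wild-type (blue, right) hearts after TAC, with mean ± SD beside the points; every panel spans the same number of log2 units. The groups separate in Aqp1, Aqp4 and Aqp8, and transgenic replicate 2 lies at 7.08 for Aqp8, below the other hearts.

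Aqp4, the main water channel of astrocytes and of the muscle cell membrane, had log2 values of 6.91, 6.95 and 6.95 in the transgenic hearts, against 5.93, 5.98 and 6.10 in the wild-type hearts. All transgenic hearts were above all wild-type hearts, and the transgenic values lay within 0.04 of each other. The mean was 6.94 ± 0.02 in transgenic and 6.003 ± 0.09 in wild-type hearts (SD, n = 3 each). The log2 difference was 0.93 ± 0.06 (SE), a 1.91-fold higher signal with a 95% interval of 1.73 to 2.11, and the limma adjusted p was 0.00111. Of all 21789 rows, 38 had a difference at least this high, Aqp4 included. An exact two-sided permutation test of a single row, 3 hearts against 3, cannot go below p = 0.1, and it gave that value for Aqp4, Aqp1 and Aqp8. The row was dim: it stood at the brightness percentile 38.1 of all tested rows. As a reference for dim rows, 1035 rows of odour receptors, genes of the nose, had a median of 4.84, and 95% of them lay below 6.31. The transgenic mean of Aqp4 exceeded 98.4% of these rows and the wild-type mean 91.5%, so that the wild-type mean lay below the level of 6.31 and the transgenic mean above it. The fold is therefore one of signals, against a dim group, and gives no exact fold in RNA. Probe sets differ in how bright they are for the same amount of RNA, so this places the row on the array and is no measure of its RNA against that of other genes.

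Aqp1, the water channel first known from red blood cells and abundant in capillary endothelium, had log2 values of 10.14, 10.30 and 10.36 in the transgenic hearts, against 10.82, 10.81 and 10.90 in the wild-type hearts. Again the groups did not overlap, with every transgenic heart below every wild-type heart. The mean was 10.27 ± 0.11 in transgenic and 10.84 ± 0.05 in wild-type hearts (SD, n = 3 each). Aqp1 fell by 0.58 ± 0.07 (SE) on the log2 scale, a 1.49-fold lower signal with a 95% interval of 1.33 to 1.67 (limma adjusted p = 0.0106). The call was lost without wild-type replicate 2, with a difference of -0.59 and a limma adjusted p of 0.056, and without wild-type replicate 3, with -0.55 and 0.0565. In bulk tissue, fewer cells of a type and less RNA per cell cannot be told apart.

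Endothelial and red blood cell markers were read beside Aqp1, since both cell types carry it. Of 10 endothelial markers 9 were lower and 1 higher, 0 passed, and their median difference was -0.10. Summed on the linear scale they came to 12735 to 14128 units per transgenic heart and 13671 to 14556 per wild-type heart, ranges that overlap. The receptor genes Flt1 and Kdr had differences of -0.17 ± 0.07 and -0.14 ± 0.06 (SE, limma adjusted p = 0.295 and 0.299). Vwf was at -0.12 ± 0.07 (limma adjusted p = 0.486). The genotypes did not overlap in Flt1, Kdr and Vwf, as in 20.3% of all rows, and overlapped in the other endothelial markers. Cldn5 had the most negative difference, -0.35 ± 0.22 (limma adjusted p = 0.518). The junction gene Pecam1, the 1 that was higher, had 0.03. Of 8 red blood cell markers 5 had a row of their own, and 1 of the 5 fell. This was Alas2, the enzyme that starts heme synthesis in red cell precursors, with 7.74, 7.99 and 7.91 in transgenic and 8.64, 8.69 and 8.61 in wild-type hearts. Its difference was -0.77 ± 0.07 (SE, limma adjusted p = 0.00486), with no overlap. Slc4a1, the anion exchanger of the red cell membrane, was at -0.02, and the other 3 markers, Rhag, Epb42 and Add2, lay between -0.14 and 0.00. The sum over the 5 markers was 446 to 479 units in transgenic and 635 to 643 in wild-type hearts. Without Alas2 the mean log2 value of the other 4 was 5.45 to 5.52 in transgenic and 5.50 to 5.56 in wild-type hearts. Rhag, Epb42 and Add2 were dim, with means of 4.44, 4.96 and 5.49 in transgenic and 4.50, 4.96 and 5.63 in wild-type hearts. These lie below 6.31, the level that held 95% of the odour receptor rows, so a change in them could be hidden. The globin rows were not analysed here, and no marker is at 0, since RMA values have no true 0. The part of either cell type in the difference of Aqp1 was not tested.

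Aqp8, a channel of gut, liver and pancreas epithelium that also passes ammonia and hydrogen peroxide, had log2 values of 8.15, 7.08 and 8.24 in the transgenic hearts, against 8.95, 9.54 and 9.13 in the wild-type hearts. All transgenic values were below all wild-type values, but transgenic replicate 2 stood more than 1 log2 unit below the other transgenic hearts. The mean was 7.82 ± 0.65 in transgenic and 9.21 ± 0.30 in wild-type hearts (SD, n = 3 each). The log2 difference of -1.38 ± 0.29 (SE) corresponds to a 2.61-fold lower signal, with a 95% interval of 1.63 to 4.17, and did not pass (limma adjusted p = 0.0862). Of all 21789 rows, 7 had a difference at least this low, Aqp8 included. Without transgenic replicate 2 the difference was smaller, -1.01 ± 0.16 (SE), and the limma adjusted p was 0.0465. It was also below the threshold with arrays centred on their medians (0.046) and without the dimmest 40% of rows (0.0367). The limma adjusted p was above the threshold with the replicate number as a block (0.169) and with a trended and robust variance prior (0.177). Without any other single array it was 0.105 to 0.251. All 6 markers of liver and intestine had a row. Their mean log2 value was 5.50 to 5.68 in transgenic and 5.54 to 5.74 in wild-type hearts, and 0 of the 6 passed. All but Apoa1 averaged below 6.31, the level that held 95% of the odour receptor rows, so a change in them could be hidden.

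**Figure D2:**
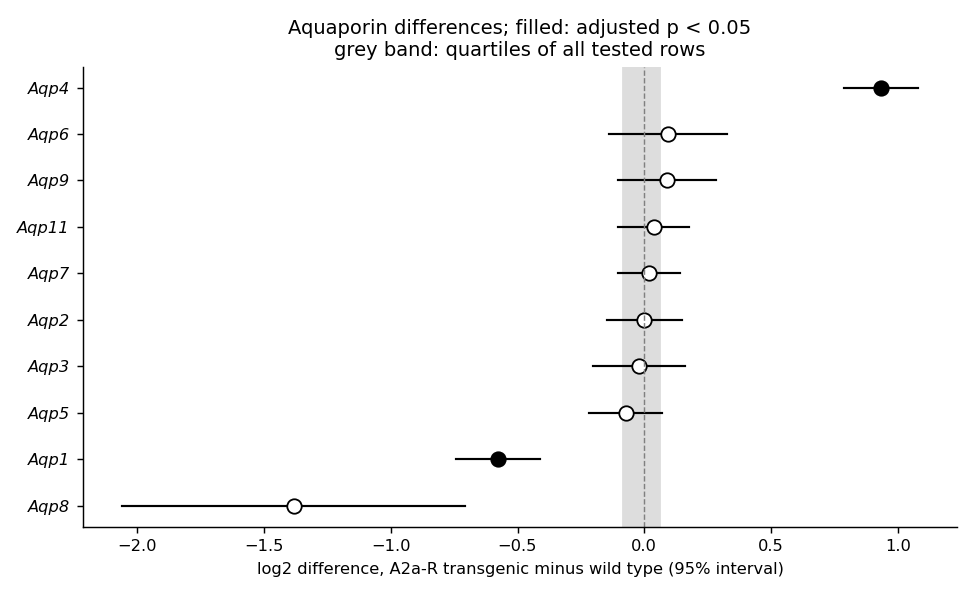
Log2 difference, A2a-R transgenic minus wild type, of each aquaporin row with its 95% interval from limma, sorted by size; filled points passed at an adjusted p of 0.05 over all tested rows, and the grey band holds the middle quartiles of all rows (-0.08 to 0.06). Aqp4 lies to the right, Aqp1 and Aqp8 to the left, and the intervals of the other 7 genes include 0.

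The other water channels were Aqp2, Aqp5 and Aqp6, which neighbour each other on chromosome 15. Aqp2, the vasopressin-regulated channel of the kidney collecting duct, had 7.28, 7.10 and 7.23 in transgenic and 7.21, 7.21 and 7.19 in wild-type hearts, with the same mean of 7.20 in both. Aqp5, a channel of salivary and other glands, had 7.04, 6.87 and 6.94 in transgenic and 7.02, 7.05 and 7.0 in wild-type hearts, a difference of -0.07 with a 95% interval of -0.22 to 0.07. The groups overlapped in both genes. Aqp6, a channel of intracellular vesicles in the kidney that also conducts anions, had 5.16, 5.51 and 5.27 in transgenic and 5.09, 5.24 and 5.33 in wild-type hearts. Its difference was 0.09 with an interval of -0.14 to 0.33, the widest among the 7 genes with no visible separation. Of 7 kidney tubule markers 4 were higher and 3 lower, 0 passed, and their mean log2 value was 5.86 to 6.04 in transgenic and 5.86 to 6.03 in wild-type hearts. Most of these rows averaged below 6.31, the level that held 95% of the odour receptor rows.

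Among the aquaglyceroporins the brightest row was that of Aqp7, the glycerol channel of fat cells and heart, at the brightness percentile 96.0. It had 10.83, 10.87 and 10.81 in transgenic and 10.80, 10.82 and 10.83 in wild-type hearts. These values barely spread within or between genotypes: the difference was 0.02 ± 0.05 (SE), and its 95% interval of 0.93-fold to 1.10-fold leaves out larger changes (limma adjusted p = 0.904). Fat cell markers were read beside it. Adipoq, the fat cell hormone adiponectin, had a mean of 5.36 in transgenic and 5.41 in wild-type hearts, inside the range of the odour receptor rows. Fabp4, a fatty acid carrier that capillary endothelium also makes, was bright, with a mean of 11.93 in transgenic and 11.81 in wild-type hearts. Of 7 fat cell markers 6 were lower and 1, Fabp4, was higher, and 0 passed. Cidec, which had the smallest p of this list, was at -0.29 ± 0.11 (SE, limma adjusted p = 0.292). Aqp3, a channel of skin and kidney epithelium, had 6.66, 6.43 and 6.67 in transgenic and 6.67, 6.59 and 6.56 in wild-type hearts. Aqp9, the glycerol channel of liver and white blood cells, had 5.87, 5.71 and 5.91 in transgenic and 5.88, 5.71 and 5.63 in wild-type hearts. Both overlapped, with differences of -0.02 (95% interval -0.20 to 0.16) and 0.09 (-0.10 to 0.28). Neutrophil markers, a source of Aqp9, had 0 of 7 called and a median of -0.04. All 7 averaged below 6.31, the level that held 95% of the odour receptor rows.

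Aqp11, which lies in the endoplasmic reticulum, had 6.35, 6.24 and 6.30 in transgenic and 6.23, 6.33 and 6.22 in wild-type hearts, an overlap of the groups and a difference of 0.04 (95% interval -0.10 to 0.18). Averaged over the 6 hearts, 7 of the 10 rows lay above the level that held 95% of the odour receptor rows, and Aqp6, Aqp9 and Aqp11 did not. Aqp4 is among the 7 only through the transgenic hearts, where it is high. Of the family members outside the rule, Mip, the lens channel, was at 0.01 and Aqp12, a channel of the pancreas, at 0.08 on the log2 scale, and neither passed (limma adjusted p = 0.979 and 0.752). The 7 aquaporins other than Aqp1, Aqp4 and Aqp8 differed by -0.07 to 0.09, with 95% intervals that reached from -0.22 to 0.33 in all. For each gene, differences inside its own interval are not left out by these 3 arrays per group.

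The genes beside the aquaporins in the RefSeq order of protein-coding genes were read as well. Of 12 such neighbours with a row, 1 passed, where 0.959% of all tested rows did, and nothing is read from this count. That gene, Aldh1a2, which makes retinoic acid and neighbours Aqp9, rose by 0.50 ± 0.06 (SE, limma adjusted p = 0.0105). It is named here after its value was seen. The other 11 lay between -0.10 and 0.17, among them Mindy4 and Ghrhr beside Aqp1 at -0.02 and 0.01, and Kctd1 and Chst9 beside Aqp4 at 0.00 and 0.17.

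The sequence upstream of 3 members is shown because Aqp1 fell, because Aqp8, which did not pass, had the most negative difference, and because Aqp2 is the member that cyclic AMP is known to drive in the kidney. The 250 bases before the RefSeq start site (build GRCm38.p6, plus strand) lie at chr6:55336049-55336298 for Aqp1, chr7:123462044-123462293 for Aqp8 and chr15:99578806-99579055 for Aqp2. Capitals mark matches on either strand to TGACG, the core of the cAMP response element, to GGGCGG, the GC box, or to TATAAA, the TATA box, which do not overlap each other here.
Aqp1: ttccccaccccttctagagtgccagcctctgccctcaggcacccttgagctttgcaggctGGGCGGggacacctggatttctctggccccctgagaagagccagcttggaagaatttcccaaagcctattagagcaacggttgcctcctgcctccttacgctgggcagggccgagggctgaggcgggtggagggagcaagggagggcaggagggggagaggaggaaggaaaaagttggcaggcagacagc
Aqp8: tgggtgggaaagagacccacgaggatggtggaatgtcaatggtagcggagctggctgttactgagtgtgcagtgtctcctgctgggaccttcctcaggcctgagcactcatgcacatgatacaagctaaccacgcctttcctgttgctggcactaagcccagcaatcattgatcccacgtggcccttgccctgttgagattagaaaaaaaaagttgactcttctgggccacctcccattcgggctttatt
Aqp2: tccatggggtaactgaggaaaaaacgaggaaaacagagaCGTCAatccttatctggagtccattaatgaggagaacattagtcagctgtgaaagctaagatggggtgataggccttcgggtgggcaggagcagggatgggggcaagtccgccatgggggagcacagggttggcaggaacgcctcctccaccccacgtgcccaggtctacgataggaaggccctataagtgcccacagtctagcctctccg
Aqp1 held 1 GC box, starting 190 bases before the start site, and Aqp8 held none of the 3 motifs. Aqp2 held 1 TGACG core, on the minus strand, starting 211 bases before the start site, and its row did not differ between genotypes. Of 32851 windows of this length before RefSeq start sites, 17.8% held TGACG, 32.7% a GC box and 12.4% a TATA box. The windows of the other members searched held no TGACG core, and none of Aqp4 was searched. A match is a description of letters and no evidence of binding.

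Partner genes were read from 5 lists by role, with 81 genes measured; 1 rose, 1 fell and 79 did not pass, so 2.47% were called against 0.959% of all rows. Both calls were in the list of osmotic response and cell volume, with 21 genes measured, 13 lower and 7 higher, and a median of -0.04. Stk39, the kinase SPAK that switches on sodium-potassium-chloride cotransport, had 10.61, 10.67 and 10.61 in transgenic and 10.15, 10.21 and 10.09 in wild-type hearts and rose by 0.48 ± 0.06 (SE, limma adjusted p = 0.0101). Slc5a3, the carrier that takes up the osmolyte myo-inositol, had 6.82, 6.89 and 6.88 in transgenic and 7.25, 7.32 and 7.36 in wild-type hearts and fell by 0.45 ± 0.06 (limma adjusted p = 0.0135). The groups were apart in both genes. Slc5a3 overlaps the gene Mrps6 in RefSeq, so its row may hold signal of either. The limma adjusted p without 1 array ran from 0.0366 to 0.05 for Stk39, which passed in 5 of 6 such fits and not without wild-type replicate 3. It ran from 0.0338 to 0.0759 for Slc5a3, which passed in 2 of 6, the fits without transgenic replicate 2 and without wild-type replicate 1. The next smallest p values of this list belonged to Slc38a2 and Oxsr1, both lower and neither called. Their differences were -0.44 ± 0.10 and -0.21 ± 0.06 (SE, limma adjusted p = 0.0964 and 0.179).

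The dystrophin complex, which anchors Aqp4 in the membrane, had 12 genes measured, 9 lower and 3 higher, with a median of -0.11 and 0 calls. Sntb1, a syntrophin, was at -0.34 ± 0.07 and Dtna, a dystrobrevin, at -0.27 ± 0.06 (SE, limma adjusted p = 0.0692 and 0.0987). Dmd, dystrophin itself, was at -0.19 ± 0.06 (0.195). With a trended and robust variance prior, Sntb1 and Dtna passed (limma adjusted p = 0.0158 and 0.0208) and Dmd did not (0.0711). That prior called more rows throughout, 579 of 21789 against 209 in the reported fit, which holds for each value given with it below.

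Of 19 genes of glycerol and triglyceride handling, 12 were lower and 7 higher, with a median of -0.04 and 0 calls. Gpd1, the glycerol-3-phosphate dehydrogenase, was at -0.25 ± 0.06 (SE, limma adjusted p = 0.133) and Lipe, the hormone-sensitive lipase, at 0.23 ± 0.07 (0.215). Gpd1 had a limma adjusted p of 0.0398 with the trended prior. Of 19 genes of vasopressin, cyclic AMP and channel trafficking, 16 were lower and 3 higher, with a median of -0.11 and 0 calls. Myo5b, a motor of recycling vesicles, was at -0.24 ± 0.05 (limma adjusted p = 0.105, and 0.0362 with the trended prior), the transcription factor Creb1 at -0.18 ± 0.07 (0.269), and Avpr2, the kidney vasopressin receptor, at -0.16 ± 0.07 (0.348). Of 10 urea, ammonia and gas channels and carbonic anhydrases 0 passed, and Car14, a membrane carbonic anhydrase, was at 0.43 ± 0.13 (limma adjusted p = 0.206).

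**Figure D3:**
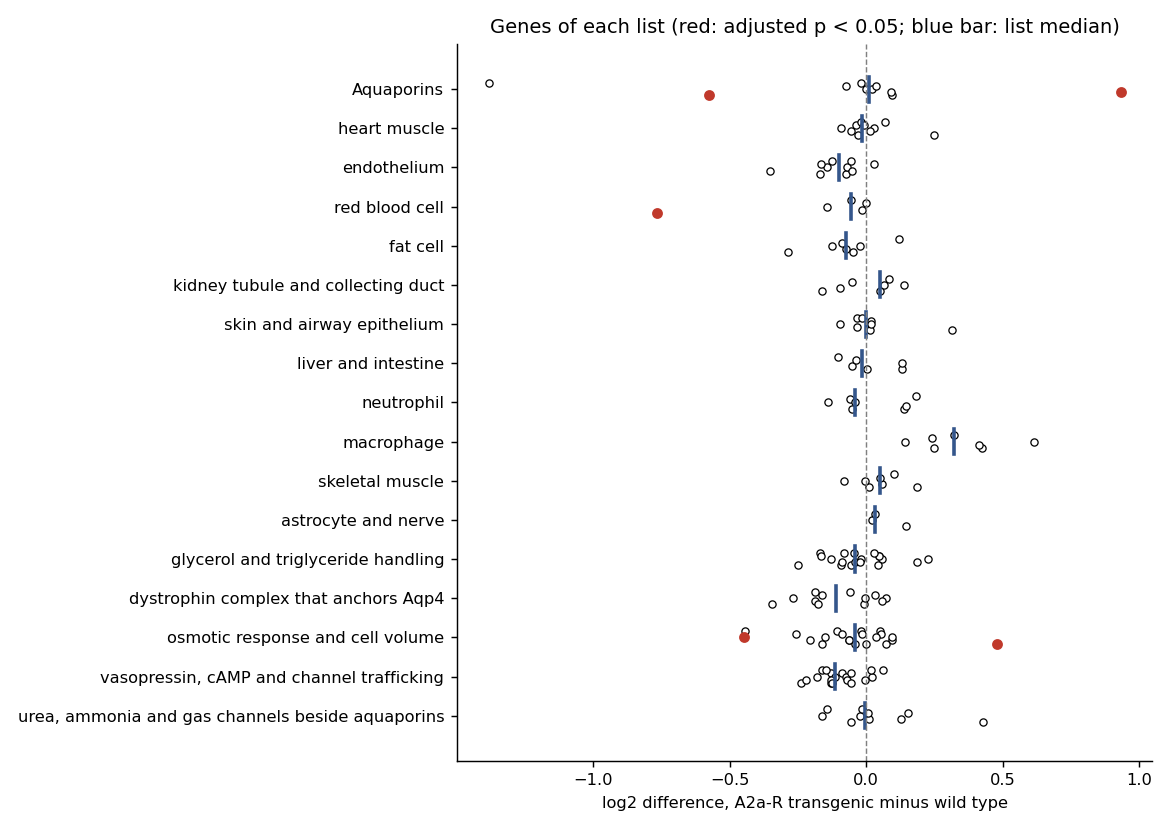
Log2 difference, A2a-R transgenic minus wild type, of each measured gene in the aquaporin family, 11 cell type marker lists and 5 partner lists; red points passed at an adjusted p of 0.05 over all tested rows and blue bars are list medians. Besides Aqp1 and Aqp4 only Alas2, Stk39 and Slc5a3 passed among the genes plotted.

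Markers of muscle and of other cell types were read beside Aqp4. Heart muscle markers went both ways, 4 higher and 6 lower of 10, with a median of -0.01. Ryr2, the calcium release channel, had the highest difference of the 10, 0.25 ± 0.07 (SE, limma adjusted p = 0.149). Its limma adjusted p was 0.032 with the trended prior, under which 579 of all rows passed. The 3 measured astrocyte and nerve markers had 0 calls, with Gfap at 5.59 in transgenic and 5.45 in wild-type hearts on average. Of 7 skeletal muscle markers 0 passed, and their median was 0.05. Of 8 markers of skin and airway epithelium, 4 were higher and 4 lower, and Krt18, a keratin of simple epithelium, was at 0.31 ± 0.10 (SE, limma adjusted p = 0.204). Of 7 macrophage markers 7 had a positive difference, with a median of 0.32, and 0 passed. C1qb, C1qa, both complement genes, and Cd68, a lysosomal protein, had limma adjusted p of 0.0537, 0.102 and 0.0622, and of 0.00689, 0.0262 and 0.014 with the trended prior. The sum over the 7 was 6087 to 6767 units in transgenic and 4482 to 5093 in wild-type hearts. Their part in the aquaporin differences was not tested.

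For Aqp4 and Aqp1 the 5 genes with the most similar rows were sought, by the root mean square difference of log2 values over the 6 hearts after each row was centred on its own mean. Nearest to Aqp4 were Hccs, a mitochondrial heme lyase (difference 0.05), Gpr158, a neuronal receptor (0.05), Prps2, a phosphoribosyl pyrophosphate synthetase (0.08), Slc7a11, the cystine carrier (0.10), and Ctnnal1, a catenin-like protein (0.10). Their differences between genotypes ran from 0.80 to 1.01. Nearest to Aqp1 were Twf2, an actin-binding twinfilin (0.06), Sh3rf2 (0.06), Tmem171 (0.07), the nuclear export receptor Xpo4 (0.07) and Lsmem1 (0.07), with differences from -0.62 to -0.49. With 6 hearts in 2 groups this likeness is mostly the size of the genotype difference.

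**Figure D4:**
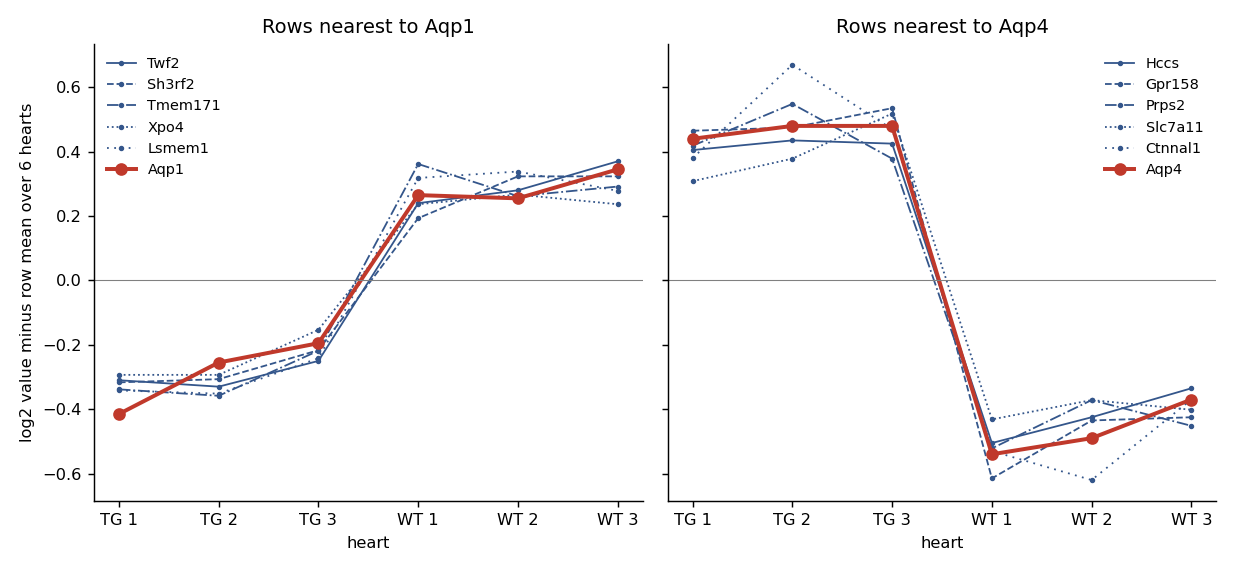
Log2 value minus the row's mean over the 6 hearts for Aqp1 (left) and Aqp4 (right), in red, and the 5 genes with the smallest root mean square difference from each, in blue; transgenic (TG) hearts stand left of wild-type (WT) hearts, and the lines only join points of a gene. All rows shown separate the genotypes in the direction of the aquaporin.

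The call of Aqp4 held in all 13 alternative fits in which the row was tested, with differences of 0.90 to 0.98 and limma adjusted p of 0.000189 to 0.0116. Aqp1 passed in 12 of 14, with differences of -0.62 to -0.51. Aqp8 passed in 3 of 14, with differences of -1.59 to -1.01 and limma adjusted p up to 0.251.

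**Figure D5:**
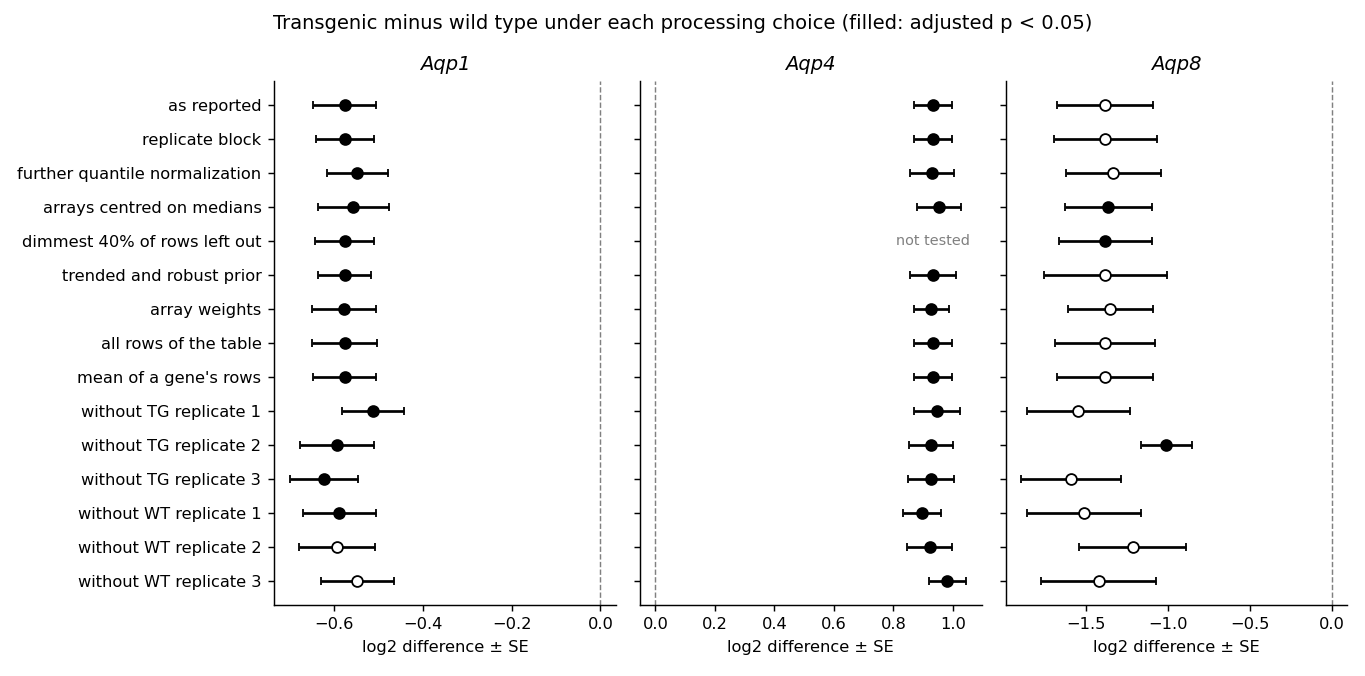
Log2 difference ± SE, A2a-R transgenic minus wild type, of Aqp1, Aqp4 and Aqp8 under the reported fit and each alternative; filled points passed at an adjusted p of 0.05. Aqp4 is filled wherever it was tested, Aqp1 is open without wild-type replicate 2 or 3, and Aqp8 is filled under 3 alternatives.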

How the data were processed

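Trizol-extracted total RNA (100 ng) was biotin-labelled as cDNA, per the labels' protocols. The authors deposited log2 values with 2 decimals. RMA (background correction, quantile normalization between arrays and summary of probes) and Partek are named in the submitters' processing notes; a genome build, like their versions, is not given in the sources used here. RMA hides a global shift in RNA content and compresses changes of dim rows. The table holds 28853 rows between 2.51 and 14.69. Of these, 21789 had exactly 1 gene symbol in the platform annotation of 2016, 1621 several and 5443 none.

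The 6 arrays were fitted with limma 3.58.1 in R 4.3.3 (lmFit and eBayes, default prior with 4.1 degrees of freedom, no covariate), transgenic minus wild type, on all rows with 1 symbol. The members, gene lists and tests were chosen with earlier results of these data known. All aquaporins were named, and for each called aquaporin the 5 nearest rows. From each list every called gene was named. In lists with no call, names were taken from the 3 genes with the smallest p, and not all 3 are given for every list. Pecam1, Cldn5, Slc4a1, Rhag, Epb42, Add2, Adipoq, Slc38a2, Oxsr1 and the neighbouring genes were named outside that rule. For lists, the row of highest mean stood for a gene, and older symbols were matched through RefSeq. Marker sums are sums of 2 to the power of the log2 value. Errors are SD over 3 hearts or the moderated SE. The number of arrays, 3 mice per group, limits precision; the median SE over all rows was 0.0731. On values simulated from the 21789 rows, the fit found 90.4% of 114 rows shifted by 0.5 and 100% of 86 shifted by 1 (log2). Of its calls, 8.7% were unchanged rows. The simulated noise was normal and independent, with the variance that the fit itself had estimated. Outlying hearts, such as transgenic replicate 2 for Aqp8, were not imitated, so these shares may be too high for real rows. Upstream sequences and gene order are RefSeq's, assembly GRCm38.p6; 9 of 10 members had a window in the table.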

Additional observations from a re-analysis of the deposited data

How the results depend on the processing

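Calls among the 10 aquaporins numbered 2, and between 1 and 3 when any 1 array was left out; 1 was higher throughout those fits and 0 to 2 were lower. Without the dimmest 40% of rows, Aqp4, Aqp6, Aqp9 and Aqp11 were not tested, so 0 were higher, and 2 were lower, Aqp1 and Aqp8. The number of lower calls was also 2 with arrays centred on their medians and at an adjusted p below 0.10. The log2 difference of Aqp3 changed sign to 0.0186 with array weights, and ran from -0.0617 to 0.0583 when 1 array was left out, positive without transgenic replicate 2 or wild-type replicate 1. That of Aqp6 ran from -0.0050 to 0.17, negative without transgenic replicate 2. Neither passed in any fit. All tested rows gave 209 calls, 113 higher and 96 lower. There were 97 with the replicate number as a block, 493 without the dimmest rows (184 higher, 309 lower), 579 with a trended and robust prior (240 higher, 339 lower), 476 at an adjusted p below 0.10 (230 higher, 246 lower), and 84 to 147 without 1 array. Calls among the 81 partner genes numbered 2, against 1 under the replicate block, 6 without the dimmest rows (of 68 tested), 7 with the trended prior, 5 at 0.10, 0 at an unadjusted p below 0.01 with a 1.5-fold change, and 0 to 2 without 1 array; under the block Slc5a3 had a limma adjusted p of 0.0536. The cause of these shifts was not tested, beyond the fewer rows or arrays that some fits use.

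Replicate numbers are shared by the groups, and nothing in the labels pairs them. No pairing was used for that reason. Deviations of same-numbered hearts from their group means correlated at r = 0.155, -0.0113 and -0.104 across rows. Hearts of different numbers were not compared in this way, so these values cannot settle whether the hearts were paired. With the number as a block, Aqp1 and Aqp4 still passed. Depth does not apply to arrays. Dimness limits Aqp6, Aqp9 and Aqp11, whose rows lay among those of the odour receptors, and Aqp4, whose wild-type mean did. It also limits many marker rows of red blood cell, liver and intestine, kidney, neutrophil, skeletal muscle, skin and airway, and nerve.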
